A study of Mus musculus with 15 samples.

Results

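The 7 genes described here encode the proteins that receive and remove the transmitter glycine in mouse brain. They are the receptor subunit genes Glra1, Glra2, Glra3, Glra4 and Glrb and the transporter genes Slc6a5 and Slc6a9. They were taken by symbol, as 7 of the 45777 symbols listed for each library. All 7 were found once and all 7 passed the filter on low counts. The set was chosen by measured values: Glra1 and Glra4 had been named earlier for their lower counts at the low dose of a BTK inhibitor than after MPTP alone. That contrast is therefore given as a description, with no test.

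Glycine is an inhibitory transmitter, best known in spinal cord and brainstem, that opens a chloride channel made of 5 subunits, usually alpha subunits together with the beta subunit. Glra1 encodes the alpha1 subunit of adult synapses, Glra2 the alpha2 subunit that prevails early in development, Glra3 the alpha3 subunit, and Glra4 the alpha4 subunit. Glrb encodes the beta subunit, which ties the receptor to its scaffold gephyrin. Slc6a5 encodes GlyT2, which refills glycine-releasing neurons, and Slc6a9 encodes GlyT1, which is found mostly in glia and clears glycine from the synapse.

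Polyadenylated RNA of mouse brain was sequenced in 15 libraries, 3 in each of 5 groups, from a design that names 8 mice per group. The groups were MPTP followed by the inhibitor of BTK (Bruton tyrosine kinase) at a high dose of 2 µg/kg/day, MPTP followed by the inhibitor at a low dose of 1 µg/kg/day, MPTP followed by levodopa at 2 mg/kg/day, MPTP alone, and untreated controls on a normal diet. Every group except the controls received MPTP, which is toxic to dopamine neurons, for 1 week at 20 mg/kg/day. Inhibitor or levodopa treatment followed for 4 weeks, and the group with MPTP alone had 4 weeks of normal diet instead. The question posed by the labels is what BTK inhibition does in this model of Parkinson disease. The samples also carry the inhibitor doses as 50 and 25 pM and a time of 6 weeks. They give the tissue as brain with no region, and the sources used here give no strain, age or sex. The labels do not say whether a library holds 1 mouse or a pool, so each p-value speaks only of the spread among these libraries, which may be technical.

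Libraries differed in regional tissue, and 2 of them stood apart. Summed over 6 cerebellar marker genes, levodopa 2 had 4879 CPM and control 2 had 5817 CPM, while the other 13 libraries had 34.5 to 94.9 CPM (CPM, read counts scaled to the TMM-adjusted library size). Summed over 5 cortex and hippocampus markers, the 6 inhibitor libraries had 52.1 to 260.1 CPM, the levodopa libraries 5.38 to 115 CPM, the MPTP libraries 4.91 to 11.6 CPM, and the controls 7.23 to 130 CPM. The highest sums outside the inhibitor groups, in levodopa 2 and control 2, were mostly Neurod2 (107.1 and 121 CPM), which cerebellar granule cells also express. Without Neurod2, a check added after the data were seen, the sums were 41.1 to 199.9 CPM with inhibitor, 2.96 to 22.9 CPM with levodopa, 3.51 to 10.55 CPM after MPTP and 4.32 to 8.65 CPM in controls, so no inhibitor library overlapped any other. Summed over 5 thalamus and midbrain markers, the inhibitor libraries had 96.8 to 333 CPM, the levodopa libraries 132 to 463 CPM, the MPTP libraries 646 to 715 CPM and the controls 50.2 to 683 CPM. Hindbrain Hox genes were near 0, with at most 1.86 CPM for all 14 together (control 2). Of the 14 listed, 12 or 13 were at 0 in each inhibitor library, each MPTP library and control 1. In the levodopa libraries, control 2 and control 3 it was 3 to 11. The 6 brain markers summed to at least 6504 CPM in every library. Library totals were 58149722 to 61998459 reads in the inhibitor groups and 63314658 to 68257095 reads in the other 9 libraries. All inhibitor libraries were therefore shallower than all others, and depth and drug cannot be told apart by this design.

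The 4 alpha subunit genes are close relatives, so their sequences show whether reads of one could be counted for another. The stretch around the longest run shared by Glra1 and Glra2, 60 coding bases of a single exon, is printed for each gene on its coding strand (GRCm38, GENCODE M21), with capitals for the bases that differ from Glra1. It lies at chr11:55527372-55527431 (minus strand) for Glra1, chrX:165252337-165252396 (minus) for Glra2, chr8:56089022-56089081 (plus) for Glra3 and chrX:136767301-136767360 (minus) for Glra4.
Glra1: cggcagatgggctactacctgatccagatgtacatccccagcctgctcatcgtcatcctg
Glra2: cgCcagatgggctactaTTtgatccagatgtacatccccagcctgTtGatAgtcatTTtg
Glra3: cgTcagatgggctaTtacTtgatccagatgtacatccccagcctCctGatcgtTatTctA
Glra4: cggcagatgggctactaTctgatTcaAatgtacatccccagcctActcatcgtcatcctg
Glra2 differed from Glra1 at 8 of these 60 bases, Glra3 at 8 and Glra4 at 4. Over the whole coding sequence the alpha genes were 70.5% to 73.8% identical to each other and 55.2% to 58.1% identical to Glrb, and Slc6a5 and Slc6a9 were 59% identical. The longest run of identical bases in any pair was 26, and no pair shared a stretch of 50 bases, so a read with 50 or more coding bases has bases that tell the genes apart.

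By position, Glra1 covers chr11:55514238-55608198 (minus strand), Glra2 chrX:165129017-165327393 (minus), Glra3 chr8:55940460-56130070 (plus), Glra4 chrX:136757674-136780141 (minus), Glrb chr3:80843599-80913660 (minus), Slc6a5 chr7:49910146-49963856 (plus) and Slc6a9 chr4:117834506-117875198 (plus), all in GENCODE M21. Glra4 is overlapped on the other strand by BC065397, which had 202 to 361 reads per library against 11 to 246 reads for Glra4. The kit keeps strand, but no source used here gives the strand setting of the counting, so the Glra4 values are uncertain. Slc6a9 is overlapped on the other strand by Ccdc24 (66 to 196 reads) and B4galt2 (1669 to 4261 reads), against 2411 to 11725 reads for Slc6a9 itself. The antisense gene of Glra1, Gm12236, had 0 to 11 reads.

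Glra1, the adult alpha1 subunit, was the gene of the 7 that separated the inhibitor libraries from all others. Its level was 0.913, 0.367 and 1.62 CPM in the 3 high-dose libraries and 0.135, 0.990 and 0.140 CPM in the 3 low-dose libraries. It was 8.42, 1.72 and 5.77 CPM in the levodopa libraries, 6.07, 7.34 and 10.98 CPM in the MPTP libraries, and 5.61, 1.76 and 10.4 CPM in the controls. The highest inhibitor library, high dose 3, lay just below the lowest of the other 9, levodopa 2. The former had 96 reads, with a 95% Poisson interval of 77.8 to 117 reads, which covers the 107 reads of levodopa 2. None of the other 6 genes had such a gap. Glra1 had been named for its lower counts at the low dose, so its low-dose values are part of the choice of the set. The share of all genes with such a gap is not given here. Between single groups, which is a different split, 39.8% of all genes had no overlap for the high dose against MPTP. It was 27.4% for the high dose against controls. The counts behind the lowest values were 8 reads each in low dose 1 and low dose 3, with a 95% Poisson interval of 3.45 to 15.8 reads that covers counting error only. By group mean the order was MPTP, control, levodopa, high dose, low dose, and in this order only levodopa and high dose had ranges that did not overlap.

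**Figure D1:**
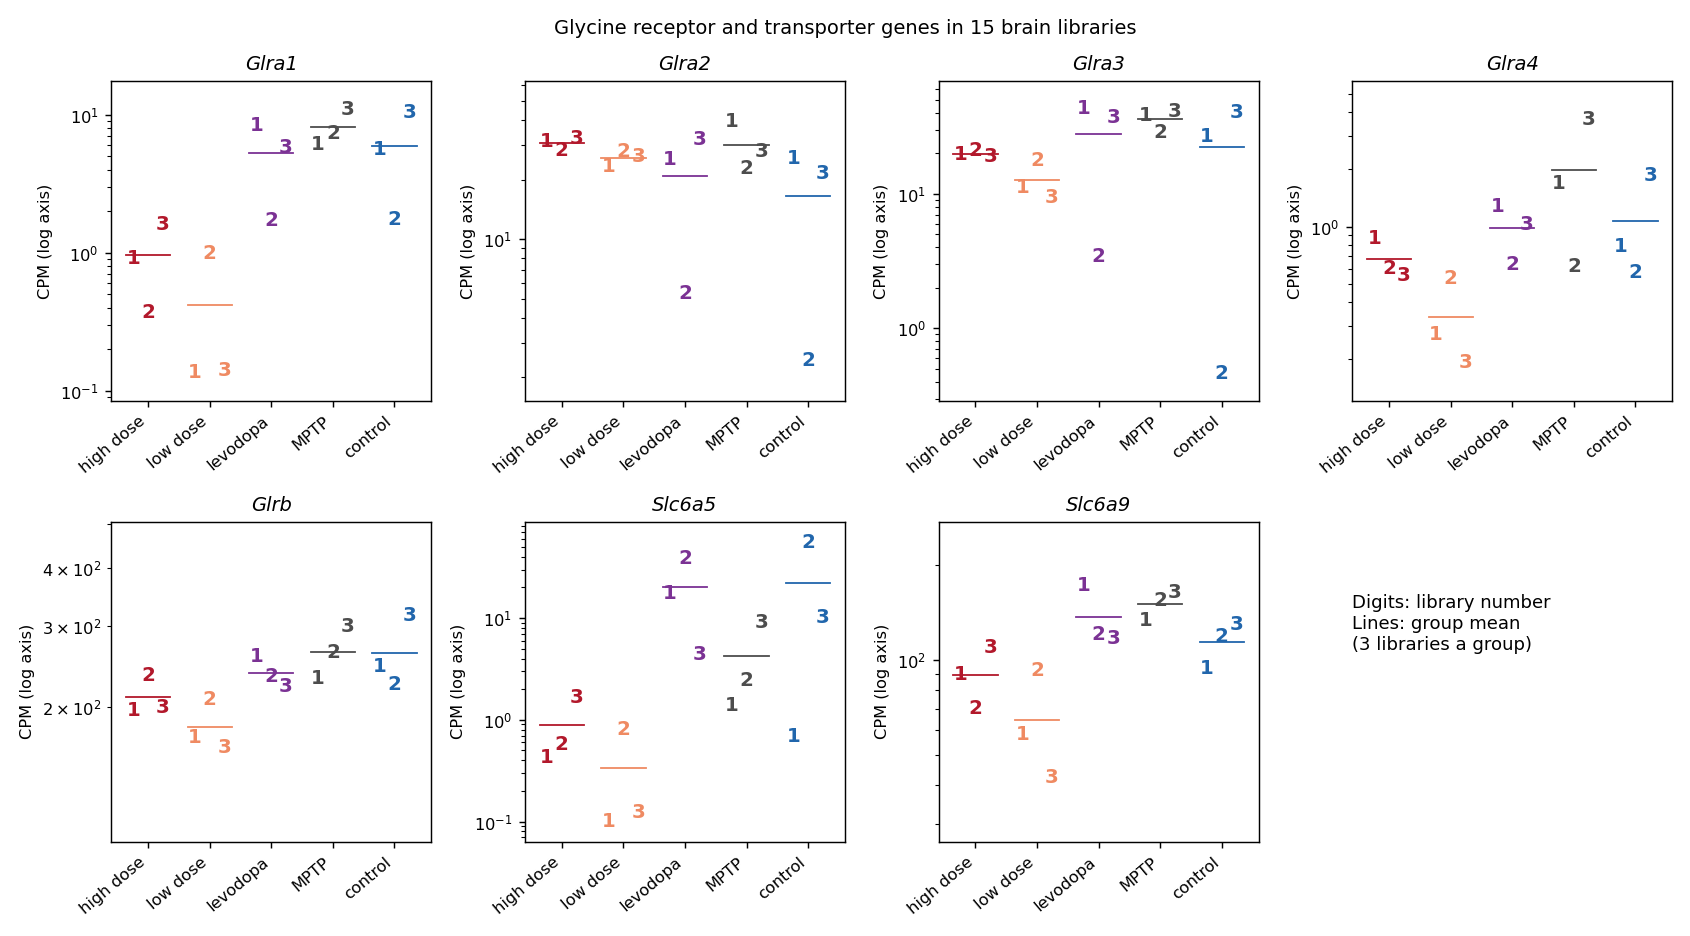
Level of each of the 7 genes in each of the 15 libraries, in CPM on a log axis that differs between panels. Digits are library numbers and lines are group means (3 libraries each): Glra1 has every inhibitor library at or below 1.62 CPM and every other library at or above 1.72 CPM, while Glra2 of the inhibitor libraries lies within the range of the others.

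Glra4, the alpha4 subunit, was rarely read in any group. Its level was 0.864, 0.601 and 0.556 CPM at the high dose and 0.270, 0.536 and 0.193 CPM at the low dose. The levodopa libraries had 1.28, 0.628 and 1.03 CPM, the MPTP libraries 1.70, 0.615 and 3.66 CPM and the controls 0.787, 0.575 and 1.86 CPM. MPTP 3 was the highest, and the inhibitor and other libraries overlapped.

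Glra2, the alpha2 subunit, did not separate the inhibitor libraries from the others. It had 31.2, 27.9 and 32.3 CPM at the high dose and 23.4, 27.7 and 26.1 CPM at the low dose. The levodopa libraries had 25.2, 5.31 and 32.0 CPM, the MPTP libraries 39.4, 22.8 and 27.7 CPM and the controls 25.6, 2.43 and 21.5 CPM. The 6 inhibitor libraries fell inside the range of the others, and the lowest values belonged to control 2 and levodopa 2, the libraries with cerebellar markers.

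Glra3, the alpha3 subunit, also had its lowest values in those 2 libraries. It had 19.4, 20.8 and 18.8 CPM at the high dose and 11.1, 17.6 and 9.30 CPM at the low dose. The levodopa libraries had 43.0, 3.41 and 36.8 CPM, the MPTP libraries 37.8, 28.6 and 41.0 CPM and the controls 26.6, 0.460 and 40.1 CPM. The inhibitor libraries had 9.30 to 20.8 CPM, below each of the other 9 except levodopa 2 and control 2.

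Divided by the length of each gene's exons, the alpha subunits could be compared with each other. Glra2 made up 77.1% ± 0.467 of the alpha CPM per kb at the high dose and 83.0% ± 5.30 at the low dose, against 54.0% ± 5.98 with levodopa, 53.5% ± 8.87 after MPTP and 47.6% ± 10 in controls (SD, n = 3 each). Each of the 6 inhibitor libraries had a Glra2 share of 76.5% to 87.7% and each of the other 9 had 41.6% to 62.6%, with no overlap. The Glra1 share was 0.614% to 5.06% with inhibitor and 12.6% to 39.7% without, also with no overlap. The Glra3 share was 10.7% to 19.6% with inhibitor and 2.72% to 27.8% without, which overlapped. So did the Glra4 share, 1.01% to 3.35% with inhibitor and 2.235% to 15.6% without. These shares restate the counts that chose the set, so they are given with no test. They rest on 2041 to 3218 alpha reads per inhibitor library and 318 to 5806 in the others. With the coding length in place of all exons, a check added after the data were seen, the Glra2 shares were lower, 57.6% to 74.2% with inhibitor and 30.1% to 49.0% without, and still did not overlap.

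**Figure D2:**
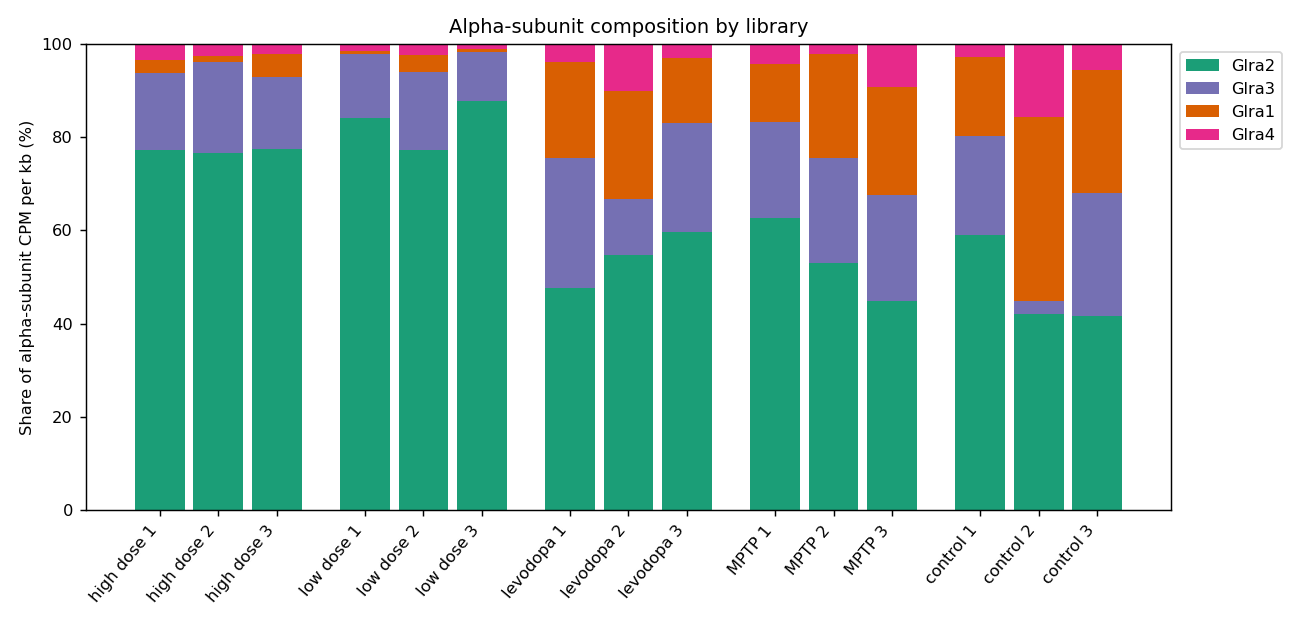
Share of each alpha subunit gene in the summed alpha CPM per kb of exon, in percent, for each library. Glra2 takes 76.5% to 87.7% of every inhibitor bar and 41.6% to 62.6% of the others, and Glra1 is a thin band of at most 5.06% in the inhibitor bars.

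Glrb, the beta subunit, was lower in most inhibitor libraries than elsewhere. It had 196, 234 and 199.6 CPM at the high dose and 172, 207 and 163 CPM at the low dose. The levodopa libraries had 258, 233 and 222 CPM, the MPTP libraries 230, 262 and 298 CPM and the controls 245, 224 and 316 CPM. High dose 2 overlapped the other groups and the other 5 inhibitor libraries lay below all 9. Per kb of exon, Glrb was 3.24 to 4.34 times the sum of the alpha genes with inhibitor and 2.48 to 4.14 times in 7 of the other 9 libraries. These ratios overlapped, while the Glra1 and Glra2 shares of the alphas did not. The ratio was 16.2 in levodopa 2 and 26.2 in control 2, where the alpha sum was 3.08 and 1.84 CPM per kb.

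Slc6a5, the neuronal transporter GlyT2, varied most between libraries. Its level was 0.424, 0.568 and 1.65 CPM at the high dose and 0.101, 0.796 and 0.123 CPM at the low dose. The levodopa libraries had 17.6, 38.4 and 4.34 CPM, the MPTP libraries 1.39, 2.42 and 8.99 CPM and the controls 0.683, 55.3 and 10.2 CPM. Control 2 and levodopa 2 were the highest, and control 1 lay among the inhibitor libraries. Low dose 1 rested on 6 reads (95% Poisson interval 2.2 to 13.1) and low dose 3 on 7 reads.

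Slc6a9, the mainly glial transporter GlyT1, varied much less. It had 89.8, 69.8 and 109.4 CPM at the high dose and 58.1, 92.5 and 42.2 CPM at the low dose. The levodopa libraries had 172, 121 and 117 CPM, the MPTP libraries 134, 154 and 164 CPM and the controls 93.6, 119 and 129.6 CPM. Among the inhibitor libraries, high dose 3 alone lay above the lowest of the others, control 1. Per kb of exon, Slc6a5 was 0.124% to 1.07% of the 2 transporters with inhibitor, 0.518% to 6.80% in 7 of the others, and 18.5% in levodopa 2 and 24.9% in control 2.

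**Figure D3:**
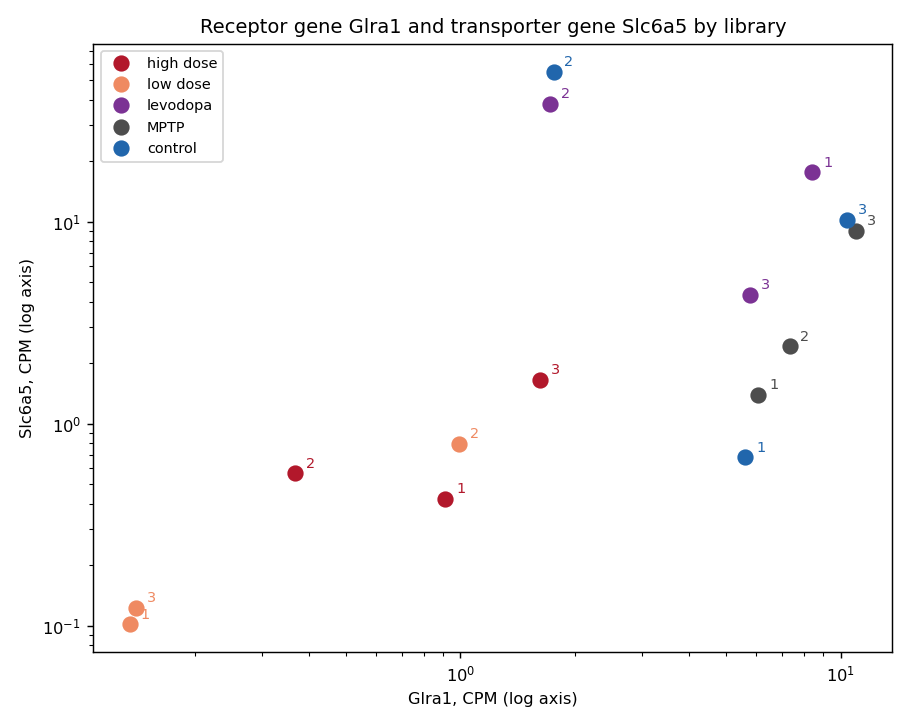
Level of the receptor gene Glra1 (horizontal) against the transporter gene Slc6a5 (vertical), both in CPM on log axes, 1 point per library with its number. The 6 inhibitor libraries lie left of all others, with low dose 1 and 3 lowest on both axes, and levodopa 2 and control 2 combine the highest Slc6a5 (38.4 and 55.3 CPM) with a Glra1 of 1.72 and 1.76 CPM.

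The regional markers differed between libraries along with some of these genes and not with others. Levodopa 2 and control 2, with thalamus and midbrain sums of 132 and 50.2 CPM, had the lowest Glra1, Glra2 and Glra3 outside the inhibitor groups. Of those markers, Gata3 was listed at 0 in control 2. Low dose 1 and low dose 3, with the lowest Glra1 and Slc6a5, had thalamus and midbrain sums of 96.8 and 219.9 CPM. Among the inhibitor libraries, low dose 1 had the lowest sum and the lowest Glra1. High dose 3 had the highest of both, at 333 CPM for the sum and 1.62 CPM for Glra1. The sum of low dose 3 lay above those of high dose 2 (203 CPM) and low dose 2 (194 CPM), whose Glra1 was higher. Slc6a5 was highest in levodopa 2 and control 2, where the sum was low, and Glra2 of the inhibitor libraries overlapped that of the MPTP libraries although the sums did not. The inhibitor libraries as a group had fewer reads of these markers and more of the cortex and hippocampus list than the MPTP libraries, with no overlap in either sum. Brainstem serotonin markers summed to 1.16 to 6.95 CPM at the high dose, 0.456 to 5.26 CPM at the low dose, 0.950 to 173 CPM with levodopa, 1.99 to 105.3 CPM after MPTP and 0.624 to 71.5 CPM in controls. These sums were highest in levodopa 1 (173 CPM), MPTP 3 (105.3 CPM) and control 3 (71.5 CPM). Their Glra1 was also the highest, at 8.42, 10.98 and 10.4 CPM. Apart from levodopa 2 and control 2, with serotonin sums of 0.950 and 0.624 CPM, these libraries also had the highest Slc6a5. Within the inhibitor groups, high dose 3 and low dose 2 had the highest sums, Glra1 and Slc6a5. MPTP 2 had a sum of 1.99 CPM and a Glra1 of 7.34 CPM. The part of the regional markers in the levels of the 7 genes was not tested. In bulk tissue, fewer cells of a type and less RNA per cell cannot be told apart.

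Against untreated controls, the low dose had lower Glra1 and lower Slc6a5. Glra1 averaged 0.422 ± 0.492 CPM at the low dose and 5.92 ± 4.33 CPM in controls (SD over 3 libraries each). Its log2 fold change was -3.80, with SE 0.93 and edgeR adjusted p = 0.0384. Slc6a5 averaged 0.340 ± 0.395 CPM at the low dose and 22.1 ± 29.2 CPM in controls (log2 fold change -6.00, SE 1.54; edgeR adjusted p = 0.0446), although low dose 2 lay above control 1. These 2 of 7 genes passed the test, against 5.4% of all 21821 genes tested, and 2.66% of all genes were called lower. This comparison shares its low-dose libraries with the contrast that led to the set. The ranges did not overlap for 4 of 7 genes, all lower at the low dose (Glra1, Glra4, Glrb and Slc6a9), against 26.2% of all genes without overlap and 12.2% lower without overlap.

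The other 5 genes did not pass in the low-dose comparison with controls. Glrb had 180.5 ± 23.5 CPM at the low dose and 262 ± 48.3 CPM in controls (log2 fold change -0.53, SE 0.15; edgeR adjusted p = 0.0587). Slc6a9 had 64.3 ± 25.7 and 114 ± 18.5 CPM in the same order (log2 fold change -0.83, SE 0.26; edgeR adjusted p = 0.0846). Glra4 had a log2 fold change of -1.68 (edgeR adjusted p = 0.133, SE 0.64), Glra3 of -0.82 (adjusted p = 0.654) and Glra2 of 0.64 (adjusted p = 0.594). The median of the 7 was -0.83 and that of all genes tested -0.01.

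Both calls rested on single libraries. For Glra1 the log2 fold change was -3.14 without control 3 (edgeR adjusted p = 0.0852), -3.36 without low dose 1 (0.103), -3.38 without low dose 3 (0.136) and -5.40 without low dose 2 (0.0268). For Slc6a5 it was -3.97 without control 2 (edgeR adjusted p = 0.131), -6.36 without control 3 (0.0665), -5.56 without low dose 1 (0.122), -7.61 without low dose 2 (0.0651) and -5.62 without low dose 3 (0.159). With control 2 and levodopa 2 both left out, Glra1 stood at -4.22 (edgeR adjusted p = 0.0115) and Slc6a5 at -3.97 (0.0626), while Glrb passed at -0.64 (0.0292) and Glra3 at -1.40 (0.0119). With no filter on low counts the adjusted p was 0.0541 for Glra1 and 0.0623 for Slc6a5, and in a fit of only these 2 groups 0.209 and 0.221, so neither passed. The share of all genes called was 8.33% without control 2 and levodopa 2, against 5.4% as reported. It was 1.72% with no filter and 0.0541% in the fit of only these groups.

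**Figure D4:**
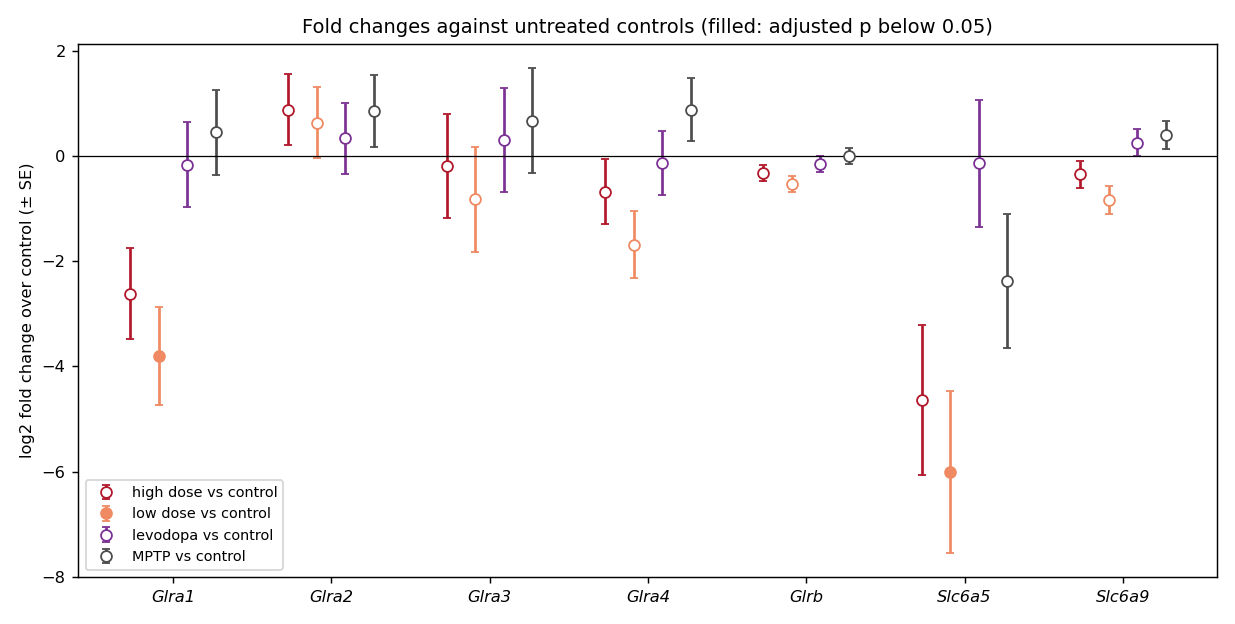
log2 fold change over untreated controls (bars, SE from the edgeR fit; 3 libraries a group) for each gene at the high dose, low dose, with levodopa and after MPTP alone. Filled points have an adjusted p below 0.05: Glra1 and Slc6a5 at the low dose, at -3.80 and -6.00. All 4 comparisons share the control libraries.

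The high dose against controls compared none of the libraries in which Glra1 and Glra4 had first been named. The spread behind its tests was still estimated from all 15 libraries, those included. A fit of only these 2 groups called 0.0148% of all genes. None of the 7 genes passed the edgeR test there, against 0.376% of all genes, with 2 at an unadjusted p below 0.05 (Glra1 and Slc6a5), against 20% of all genes. DESeq2 called those 2, against 7.72% of the genes it tested. Glra1 averaged 0.965 ± 0.626 CPM at the high dose and 5.92 ± 4.33 CPM in controls (log2 fold change -2.62, SE 0.87; edgeR adjusted p = 0.146). Slc6a5 averaged 0.880 ± 0.670 and 22.1 ± 29.2 CPM in the same order (log2 fold change -4.65, SE 1.43; edgeR adjusted p = 0.125), with a log2 fold change of -2.62 without control 2. With DESeq2 the adjusted p was 0.0227 for Glra1 and 0.00839 for Slc6a5. Ranges did not overlap for Glra1, lower at the high dose, and for Glra2, higher at 30.5 ± 2.29 CPM against 16.5 ± 12.3 CPM in controls (log2 fold change 0.89, SE 0.68; edgeR adjusted p = 0.478), which makes 2 of 7 against 27.4% of all genes (13% lower and 14.4% higher). The other log2 fold changes were -0.19 for Glra3, -0.32 for Glrb, -0.35 for Slc6a9 and -0.67 for Glra4, with edgeR adjusted p between 0.261 and 0.935. The median of the 7 was -0.35 and that of all genes -0.01.

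Levodopa after MPTP against controls also shared no library with that first contrast. Glra1 averaged 5.30 ± 3.37 CPM with levodopa and 5.92 ± 4.33 CPM in controls, and Slc6a5 20.1 ± 17.2 CPM with levodopa and 22.1 ± 29.2 CPM in controls. None of the 7 genes passed, nor did any other gene (0%), and none had an unadjusted p below 0.05 or a DESeq2 call. The log2 fold changes lay between -0.16 (Glra1) and 0.34 (Glra2). The ranges of all 7 overlapped, against 6.43% of all genes with no overlap.

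MPTP alone against controls gave no call among the 7 genes. None passed the edgeR test, nor did any other gene (0%), and none had an unadjusted p below 0.05 or a DESeq2 call. Slc6a9 was the 1 gene of 7 whose ranges did not overlap, at 150.4 ± 15.4 CPM after MPTP and 114 ± 18.5 CPM in controls (log2 fold change 0.40, SE 0.26; edgeR adjusted p = 0.717), against 13% of all genes without overlap and 6.83% higher without overlap. Slc6a5 averaged 4.27 ± 4.13 CPM after MPTP alone and 22.1 ± 29.2 CPM in controls (log2 fold change -2.37, SE 1.28; edgeR adjusted p = 0.717), with a log2 fold change of -0.35 without control 2. The other log2 fold changes were 0.01 for Glrb, 0.46 for Glra1, 0.68 for Glra3, 0.86 for Glra2 and 0.89 for Glra4. The Glra4 value was 0.11 without MPTP 3 and 1.52 without control 3.

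The high dose against MPTP alone shares the MPTP libraries with the first contrast. None of the 7 genes passed the edgeR test, against 1.97% of all genes, while 4 had an unadjusted p below 0.05 (Glra1, Glra4, Glrb and Slc6a9), against 18.5% of all genes. DESeq2 called 1, Glra1 (adjusted p = 0.00438), against 8.04% of the genes it tested. Glra1 averaged 0.965 ± 0.626 CPM at the high dose and 8.13 ± 2.55 CPM after MPTP (log2 fold change -3.07, SE 0.88; edgeR adjusted p = 0.0909). In a fit of only these 2 groups, Glra1 (edgeR adjusted p = 0.0109), Slc6a9 and Glra3 passed, against 17.5% of all genes in that fit. Slc6a9 had 89.7 ± 19.8 CPM at the high dose and 150.4 ± 15.4 CPM after MPTP (log2 fold change -0.75, SE 0.26; edgeR adjusted p = 0.152). Glra2 averaged 30.5 ± 2.29 CPM at the high dose and 29.97 ± 8.49 CPM after MPTP, a log2 fold change of 0.02 (SE 0.67). Glra1, Glra3 and Slc6a9 were lower at the high dose with no overlap, which makes 3 of 7 against 39.8% of all genes without overlap and 19.4% lower without overlap. The medians were -0.86 for the 7 genes and -0.01 for all genes.

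Levodopa against MPTP alone gave no call for any of the 7 genes or for any other gene (0%), no unadjusted p below 0.05 among the 7 and no DESeq2 call. The largest values were a log2 fold change of 2.24 for Slc6a5 (edgeR adjusted p = 0.954, SE 1.27), with 20.1 ± 17.2 CPM with levodopa and 4.27 ± 4.13 CPM after MPTP, and of -1.02 for Glra4. Single libraries moved both. The Slc6a5 value was 1.36 without levodopa 2 and 3.42 without MPTP 3, and the Glra4 value was -0.24 without MPTP 3. The other 5 lay between -0.62 and -0.14. Every range overlapped, against 9.58% of all genes without overlap.

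The comparison between the doses shares its low-dose libraries with the contrast that led to the set, so its directions are not independent of that choice. All 7 genes had a higher level at the high dose than at the low dose, by log2 fold changes of 0.22 (Glrb) to 1.36 (Slc6a5). None passed the edgeR test, nor did any other gene (0%), and none had an unadjusted p below 0.05 or a DESeq2 call. Ranges did not overlap for 3 of 7, Glra2, Glra3 and Glra4, each higher at the high dose, against 10.6% of all genes without overlap and 5.23% higher without overlap. Glra3 averaged 19.7 ± 1.03 CPM at the high dose and 12.7 ± 4.36 CPM at the low dose, a log2 fold change of 0.64 (SE 1.00).

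In the contrast that led to the set, low dose against MPTP alone, the fold changes are a description. Glra1 averaged 0.422 ± 0.492 CPM at the low dose and 8.13 ± 2.55 CPM after MPTP, a log2 fold change of -4.26 (SE 0.94). Glra4 averaged 0.333 ± 0.180 and 1.99 ± 1.54 CPM in the same order, a log2 fold change of -2.57 (SE 0.65). Slc6a5 stood at -3.63, Glra3 at -1.497, Slc6a9 at -1.23, Glrb at -0.55 and Glra2 at -0.22. For 6 of 7 genes, all but Glra2, the ranges did not overlap, and 40.7% of all genes had no overlap in this contrast (19.8% lower). Since this contrast led to the set, nothing is read from that count.

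The scaffold and release genes of the glycine synapse were not called by edgeR in any comparison. This list of 6 includes Gphn (gephyrin), Slc32a1 (the vesicular inhibitory transmitter carrier), and Nlgn2, Insyn1 and Igsf9b, which encode adhesion and anchoring proteins of inhibitory synapses. At the low dose against MPTP, 0 of 6 passed the edgeR test, against 8.53% of all genes, while 2 had an unadjusted p below 0.05, against 25.8% of all genes, and DESeq2 called 2, Insyn1 among them, against 15.7% of the genes it tested. Their median log2 fold change was 0.12 at the low dose against MPTP and -0.07 at the low dose against controls, where DESeq2 called 1, Gphn, against 12.9% of the genes it tested. In the other 6 comparisons DESeq2 called none of them, and 0 to 3 had an unadjusted p below 0.05. Gphn had 65.9 ± 5.67 CPM at the low dose and 91.1 ± 10.2 CPM in controls (log2 fold change -0.47, SE 0.13; edgeR adjusted p = 0.0602). Slc32a1 had 114 ± 47.5 CPM at the low dose and 118 ± 15.3 CPM in controls (log2 fold change -0.05).

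Of 12 genes of glycine and serine metabolism, 11 were tested, and 2 rose and none fell at the low dose against MPTP, where 4.78% of all genes were called higher. Psph, the last enzyme of serine synthesis, had 15.4, 16.6 and 16.9 CPM at the low dose and 8.75, 10.2 and 9.08 CPM after MPTP, with no overlap. Its log2 fold change was 0.80 (edgeR adjusted p = 0.00792, SE 0.14). Srr, the serine racemase that makes the NMDA receptor co-agonist D-serine, had 137, 116 and 109.5 CPM at the low dose and 76.4, 70.0 and 68.1 CPM after MPTP, also with no overlap. Its log2 fold change was 0.76 (edgeR adjusted p = 0.0118, SE 0.15), and the adjusted p was 0.0608 without MPTP 2 and 0.0589 without MPTP 3.

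At the high dose against MPTP, 1 of the same 11 genes rose and none fell, and 1.08% of all genes were called higher. It was Psph, with 13.8, 15.4 and 14.7 CPM at the high dose and a log2 fold change of 0.64 (edgeR adjusted p = 0.0407, SE 0.14). That call was lost with each of the 6 compared libraries left out in turn, with log2 fold changes of 0.60 to 0.71 and adjusted p from 0.0924 to 0.179. It was also lost with no filter (0.0708). Gldc, the glycine cleavage decarboxylase of glia, did not pass at either dose. It averaged 23.1 ± 3.79 CPM at the high dose and 23.1 ± 4.69 CPM at the low dose, against 6.50 ± 1.19 CPM after MPTP (log2 fold change 1.83 at each dose, SE 0.59; edgeR adjusted p = 0.119 at the high and 0.0714 at the low dose). Levodopa 2 and control 2 had the highest Gldc, 29.96 and 36.1 CPM. The 11 genes had a median log2 fold change of 0.36 at the high dose and 0.22 at the low dose against MPTP, where all genes tested had -0.01 in each. In the other 6 comparisons none of the 11 passed with edgeR or DESeq2, and 0 to 3 had an unadjusted p below 0.05, against 2.23% to 24.4% of all genes. DESeq2 called 3 at each dose against MPTP, namely Srr, Psph and Gldc, against 8.04% of the genes it tested at the high dose and 15.7% at the low dose.

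Of 6 other carriers of glycine, 1 fell at the low dose against MPTP and none rose, and 3.75% of all genes were called lower. It was Slc7a10, the glial exchanger of small neutral amino acids such as glycine and D-serine, with 38.8, 40.4 and 29.3 CPM at the low dose and 58.3, 62.2 and 62.6 CPM after MPTP. Its log2 fold change was -0.76 (edgeR adjusted p = 0.0196, SE 0.17), and the adjusted p was 0.0729 without MPTP 2, 0.0753 without MPTP 3 and 0.0689 without low dose 3. The controls, with 36.1, 43.2 and 51.1 CPM, lay below the MPTP libraries and overlapped the low dose. Of the 2 astrocyte genes among the brain markers, Aqp4, a water channel, had 108.6 to 151 CPM at the low dose and 167.5 to 355 CPM after MPTP, with no overlap. Gfap, an astrocyte filament gene, had 145 to 299 CPM at the low dose and 79.7 to 231 CPM after MPTP, which overlapped. The part of astrocyte content in the Slc7a10 values was not tested. Slc38a5, a glutamine and glycine carrier, had 1.56 ± 0.279 CPM at the low dose and 3.42 ± 0.495 CPM after MPTP (log2 fold change -1.14, SE 0.35; edgeR adjusted p = 0.0646). The list's median log2 fold change was -0.37 at the low dose against MPTP, and none of the 6 passed the edgeR test in the other comparisons, where 0 to 4 had an unadjusted p below 0.05, the highest number at the high dose against MPTP with its 18.5% of all genes. DESeq2 called Slc7a10 and Slc38a5 at the low dose against MPTP, against 15.7% of the genes it tested. At the high dose against MPTP it called 1 of the 6, Slc38a5, against 8.04% of the genes it tested.

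**Figure D5:**
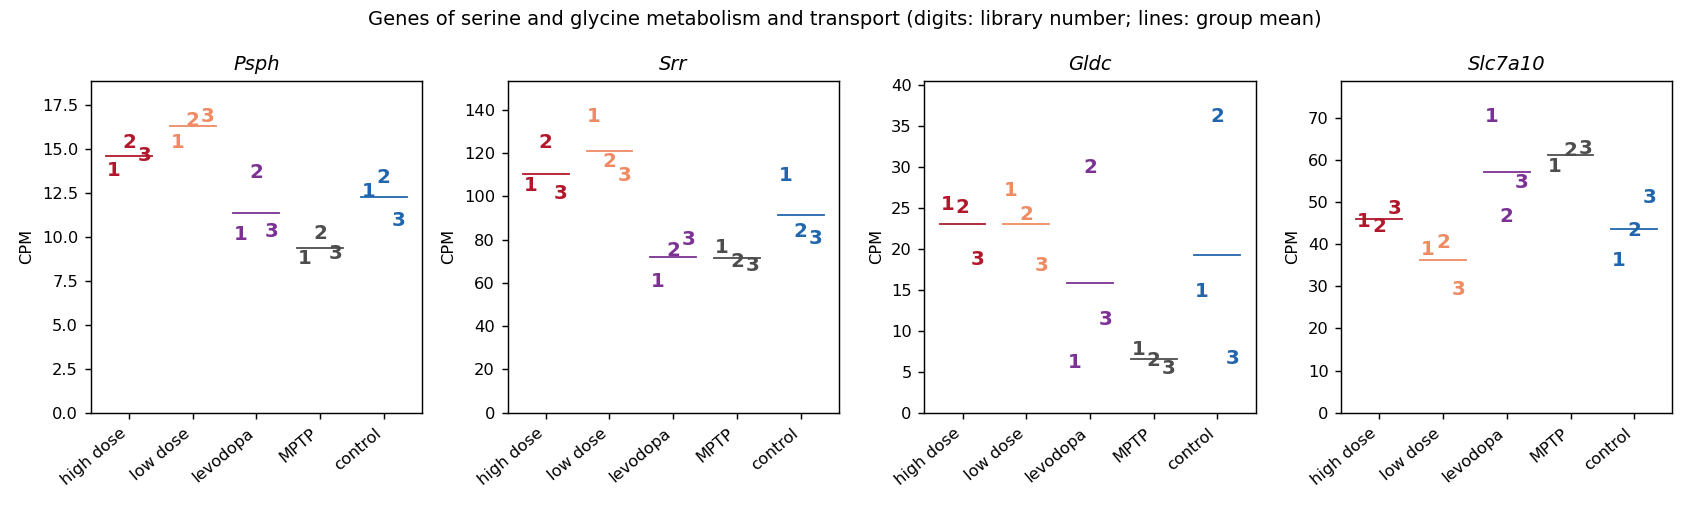
Level in CPM (linear axes from 0) of Psph and Srr, Gldc and the carrier Slc7a10 in each library, with library numbers as digits and group means as lines. Psph and Srr of the inhibitor libraries lie above all 3 MPTP libraries, Gldc of levodopa 2 and control 2 is the highest at 29.96 and 36.1 CPM, and Slc7a10 of the low dose lies below the MPTP libraries.

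The genes whose log2 levels followed Glra1 most closely over the 15 libraries, among 14103 searched, were Clcn5 (Pearson r = 0.981), Nudt12 (0.969), Btbd11 (0.968), Slc39a12 (0.965) and Ebf3 (0.964). Clcn5, a chloride and proton exchanger of endosomes, had 15.7 to 32.3 CPM with inhibitor and 30.7 to 53.2 CPM without. Ebf3, a transcription factor of developing neurons, had 3.97 to 14.1 CPM with inhibitor and 17.7 to 55.0 CPM without, with no overlap. The ranges of Clcn5, Nudt12, Btbd11 and Slc39a12 overlapped. All were picked for following Glra1, which itself separated these libraries, so nothing is read from the Ebf3 ranges. For Slc6a5 the closest were Syt2 (0.970), Tmtc4 (0.959), Steap2 (0.953), Trpm3 (0.952) and Foxn3 (0.949). Syt2, a calcium sensor of fast transmitter release, had 30.01 to 107.4 CPM with inhibitor and 109.8 to 606 CPM without, with 606 CPM in levodopa 2 and 543 CPM in control 2. These correlations describe 15 libraries that also share the group differences, the depth and the regional tissue.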

How the data were processed

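Raw counts of reads for each gene symbol were deposited by the authors in a separate file for each library. The tools listed in the submitters' processing notes are StringTie 2.1.3b, HISAT2 2.1.0, Trimmomatic and bcl2fastq 2.20.0, and the build is GRCm38/mm10. No source used here gives the annotation or the counting settings. The inhibitor files have fewer empty trailing columns than the other 9. Groups and replicate numbers came from the titles. Counts were fitted with edgeR 4.0.16 (R 4.3.3): TMM, filterByExpr by group, all 15 libraries in 1 quasi-likelihood fit, Benjamini-Hochberg adjustment over 21821 genes, threshold 0.05. The script was tested on simulated data. Levels are TMM-scaled CPM. DESeq2 1.42.0, other normalizations and filters, fits restricted to a comparison's own groups, the replicate block and leaving out libraries were alternatives. Coding sequences (GENCODE M21) were aligned with mafft 7.526. No libraries were duplicates (chi-square per degree of freedom 29.3 to 468 within groups), and 3 reads equal at most 0.0516 CPM.

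The 7 genes and the lists were chosen with earlier results of these data known, and some list genes are not reported here by name. Named genes are the 7, list genes that passed a test, up to 2 more per list, and for Glra1 and Slc6a5 the 5 genes of highest correlation of log2 CPM (prior count 2, mean of at least 1 CPM), leaving out predicted and mitochondrial genes and pseudogenes. Retina markers summed to 0.880 to 2.48 CPM and blood markers to 62.0 to 234 CPM. Same-numbered libraries deviated together (every correlation over 0.1) only between levodopa and control, 0.286 to 0.801. There libraries of different numbers reached 0.599, only 2 of 6 libraries correlated best with their own number, and the labels do not say what a number stands for.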

Additional observations from a re-analysis of the deposited data

How the results depend on the processing

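The number of the 7 genes called moved in 3 comparisons. At the low dose against controls, 2 were called as reported, 4 by DESeq2 (Glra1, Slc6a5, Glrb and Slc6a9), 0 with no filter, 0 in a fit of only the compared groups, 1 with the replicate number as a block (Slc6a5; Glra1 then had a log2 fold change of -3.40 and an edgeR adjusted p of 0.0736), and 0 to 2 with 1 library left out. At the high dose against controls, DESeq2 called 2 instead of 0, and against MPTP 1, while the fit of only those groups called 3. RLE and upper-quartile normalization left all counts as they were, the filter of 5 CPM in 3 libraries gave 3 at the low dose against controls by adding Glrb (edgeR adjusted p = 0.0392), and leaving out control 2 and levodopa 2 gave 3 there (Glra1, Glrb and Glra3). The replicate block changed no other count. Counts over all genes moved too. At the low dose against controls 1178 genes (5.4%) were called as reported and 2803 (12.9%) by DESeq2. There 571 (1.72%) were called with no filter and 11 (0.0541%) in a fit of only the compared groups. The 5 CPM filter gave 1352 (10.4%) and the replicate block 1066 (4.89%), and 1859 (8.33%) were called without control 2 and levodopa 2. At the high dose DESeq2 called 7.72% of the genes it tested against controls and 8.04% against MPTP. The fit of only the high-dose and MPTP groups called 17.5%.

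Fold changes near 0 changed sign. With 1 library left out, levodopa against controls ran from -0.66 to 0.51 for Glra1, -0.18 to 0.81 for Glra2, -0.27 to 1.01 for Glra3, -0.43 to 0.51 for Glra4, -0.24 to 0.01 for Glrb and -1.03 to 1.90 for Slc6a5. Glra2 at the high dose against MPTP ran from -0.14 to 0.29, Glra3 at the high dose against controls from -0.76 to 0.52, Glra3 with levodopa against MPTP from -0.84 to 0.15 and Glrb after MPTP against controls from -0.09 to 0.15. With the replicate block, Glra3 at the high dose against controls was 0.24 and Slc6a5 with levodopa against controls 0.77. Without control 2 and levodopa 2, Glra3 with levodopa against MPTP was 0.15, Glrb after MPTP against controls -0.09 and Slc6a5 with levodopa against controls 1.01. The cause was not tested. Depth limits Glra1, Glra4 and Slc6a5 at the low dose, which rest on 6 to 61 reads.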
